A study of Mus musculus with 24 samples.

Results

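The genes described here encode the enzymes of glycolysis and of the pentose phosphate pathway, the enzymes that join glycogen and other sugar phosphates to them, and the hypoxia factor HIF-1α with genes known to respond to it. They were listed by name, and each was read from its brightest probe, the one with the highest mean signal over all arrays. All 36 listed genes were found among the 20028 genes with a named probe, and 36 of 36 passed the filter on dim probes in every comparison. The measurements came from 24 two-colour arrays, with 1 array for each of 24 conditions. On every array, Cy3-labelled RNA of T helper cells differentiated in culture was set against Cy5-labelled RNA of naive CD4+CD62L+CD25-CD44lo T cells of lymph nodes and spleens, and all cells came from female C57BL/6 mice. Of the arrays, 14 held Th1 cells and 10 held Th2 cells, and each treatment had an unstimulated and a reactivated array. Both cell types received DMSO as vehicle, JQ1 at 50 or 500 nM, or flavopiridol at 1 or 10 µM. JQ1 blocks BET bromodomain proteins, and flavopiridol blocks P-TEFb, the kinase that releases paused RNA polymerase II. Drug exposure was 6 hr, with a later time of 24 hr for DMSO and 500 nM JQ1 in Th1 cells. For the 2 Th2 arrays with DMSO the labels named 24 hr in one place and 6 hr in another, so their time is unknown. The drugs were compared with the same DMSO arrays.

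Glycolysis splits glucose into pyruvate, which cells either pass to the mitochondria through pyruvate dehydrogenase or reduce to lactate and export. The pentose phosphate pathway branches off at glucose-6-phosphate and yields NADPH and ribose. Activated T cells are known for a high glycolytic rate, and HIF-1α, which prolyl hydroxylases such as Egln3 mark for destruction when oxygen is present, is a known activator of many glycolytic genes.

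A value is the log2 ratio of effector signal (Cy3) over naive signal (Cy5) on 1 array after loess normalization, and a change is a difference of such values. All 36 genes were well above background in the Cy3 channel on 24 of 24 arrays, and none was saturated. In the naive channel Hk2 was well above background on 18 arrays and the other 35 genes on all 24. Since there was 1 array per condition, cell types, states and times stood in for replicates. Between Th1 and Th2 cells, matched treatments and states did. The p-values thus measure the spread between those arrays, which may be technical, and not that between independent cultures. A change is called where the adjusted p of limma, taken over all genes, was below 0.05. In RNA from many cells, fewer cells of a type and less RNA per cell cannot be told apart. Cd3e, Cd3g, Cd4, Lat and Thy1, the T cell markers, were well above background on all 24 arrays. Among markers of other cells, the myeloid genes Itgam and Csf1r were above it on 24 arrays and Lyz2 on none, and of the B cell genes Ms4a1 was above it on 20 and Cd79a on 14. The NK gene Klra8 was above it on 9 and Ncr1 on 1. In the naive channel, Cd8a and Cd79a were above background on 5 arrays, the activation marker Il2 on 8 and Klra8 on none. Of the Th2 markers, Il1rl1 was on 4, Il13 on 3 and Il4 and Il5 on 2. The ratios of these markers rest on a dim reference.

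The RefSeq sequence around the gene start is shown first for 6 genes that the results turn on and whose region holds the motif below (GRCm38.p6, 250 bases before to 50 after the start, 5′ to 3′ along the gene). Bnip3, Pgm1 and P4ha1 fell on reactivation, Hk2 and Pfkfb3 rose, and Egln3, which was not called there, had the highest ratio of all 36 genes. Pfkfb3 is shown at its first listed start, and the region of its second listed start held 2 matches, within an E-box. Capitals mark ACGTG, the core of the hypoxia response element, on either strand, so that its other strand reads CACGT. Within CACGTG, an E-box that other factors also bind, both strands match and the 2 matches overlap.

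Bnip3 (chr7:138909457-138909756, minus strand): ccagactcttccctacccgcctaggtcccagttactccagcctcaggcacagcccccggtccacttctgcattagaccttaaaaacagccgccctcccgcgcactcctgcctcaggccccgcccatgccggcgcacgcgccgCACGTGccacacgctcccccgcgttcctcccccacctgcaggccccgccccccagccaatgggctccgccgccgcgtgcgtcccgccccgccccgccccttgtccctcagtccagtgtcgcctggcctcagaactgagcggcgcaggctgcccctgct
Pgm1 (chr4:99929201-99929500, plus strand): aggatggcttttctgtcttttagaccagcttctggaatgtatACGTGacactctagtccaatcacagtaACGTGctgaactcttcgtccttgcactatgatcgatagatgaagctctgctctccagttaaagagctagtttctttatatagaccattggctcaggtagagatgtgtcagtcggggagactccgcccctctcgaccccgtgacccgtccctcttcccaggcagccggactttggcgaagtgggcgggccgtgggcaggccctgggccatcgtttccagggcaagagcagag
P4ha1 (chr10:59323046-59323345, plus strand): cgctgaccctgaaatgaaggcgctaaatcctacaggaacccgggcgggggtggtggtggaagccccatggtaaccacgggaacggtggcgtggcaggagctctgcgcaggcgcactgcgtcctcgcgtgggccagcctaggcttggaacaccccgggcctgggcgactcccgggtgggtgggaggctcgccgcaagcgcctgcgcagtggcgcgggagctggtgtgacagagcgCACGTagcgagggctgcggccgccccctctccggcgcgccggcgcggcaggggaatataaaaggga
Hk2 (chr6:82774405-82774704, minus strand): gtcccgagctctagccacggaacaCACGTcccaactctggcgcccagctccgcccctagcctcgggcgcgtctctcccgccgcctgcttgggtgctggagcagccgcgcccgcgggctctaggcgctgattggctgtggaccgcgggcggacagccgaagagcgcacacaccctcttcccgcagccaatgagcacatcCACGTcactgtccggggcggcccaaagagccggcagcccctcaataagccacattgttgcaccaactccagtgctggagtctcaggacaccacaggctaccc
Pfkfb3 (chr2:11553880-11554179, minus strand): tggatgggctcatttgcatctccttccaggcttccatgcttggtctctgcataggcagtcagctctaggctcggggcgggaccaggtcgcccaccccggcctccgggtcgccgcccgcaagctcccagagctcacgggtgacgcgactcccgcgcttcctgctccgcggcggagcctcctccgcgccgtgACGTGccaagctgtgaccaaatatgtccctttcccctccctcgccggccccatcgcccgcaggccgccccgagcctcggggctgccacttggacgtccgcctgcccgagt
Egln3 (chr12:54203825-54204124, minus strand): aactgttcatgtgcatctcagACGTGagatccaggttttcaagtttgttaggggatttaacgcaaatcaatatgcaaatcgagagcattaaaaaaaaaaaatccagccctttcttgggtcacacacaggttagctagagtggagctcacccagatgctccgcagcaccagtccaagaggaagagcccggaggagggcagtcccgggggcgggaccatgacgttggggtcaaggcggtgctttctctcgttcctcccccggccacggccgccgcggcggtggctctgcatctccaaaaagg

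The core was present in 25 of the 51 start regions of the 36 genes (49%) and in 6447 of 32851 regions of the same length over all genes (19.6%). The E-box was in 6 of the 51 regions (11.8%) and in 7.15% of all regions. By gene, 22 of 36 had the core in at least 1 start region, against 21.8% of 27025 genes. Ldha had the most matches, 5 in 1 region. Pdk1, Gys1, Tpi1 and Tkt had none at any listed start, which says only that these letters are not in this window.

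**Figure D1:**
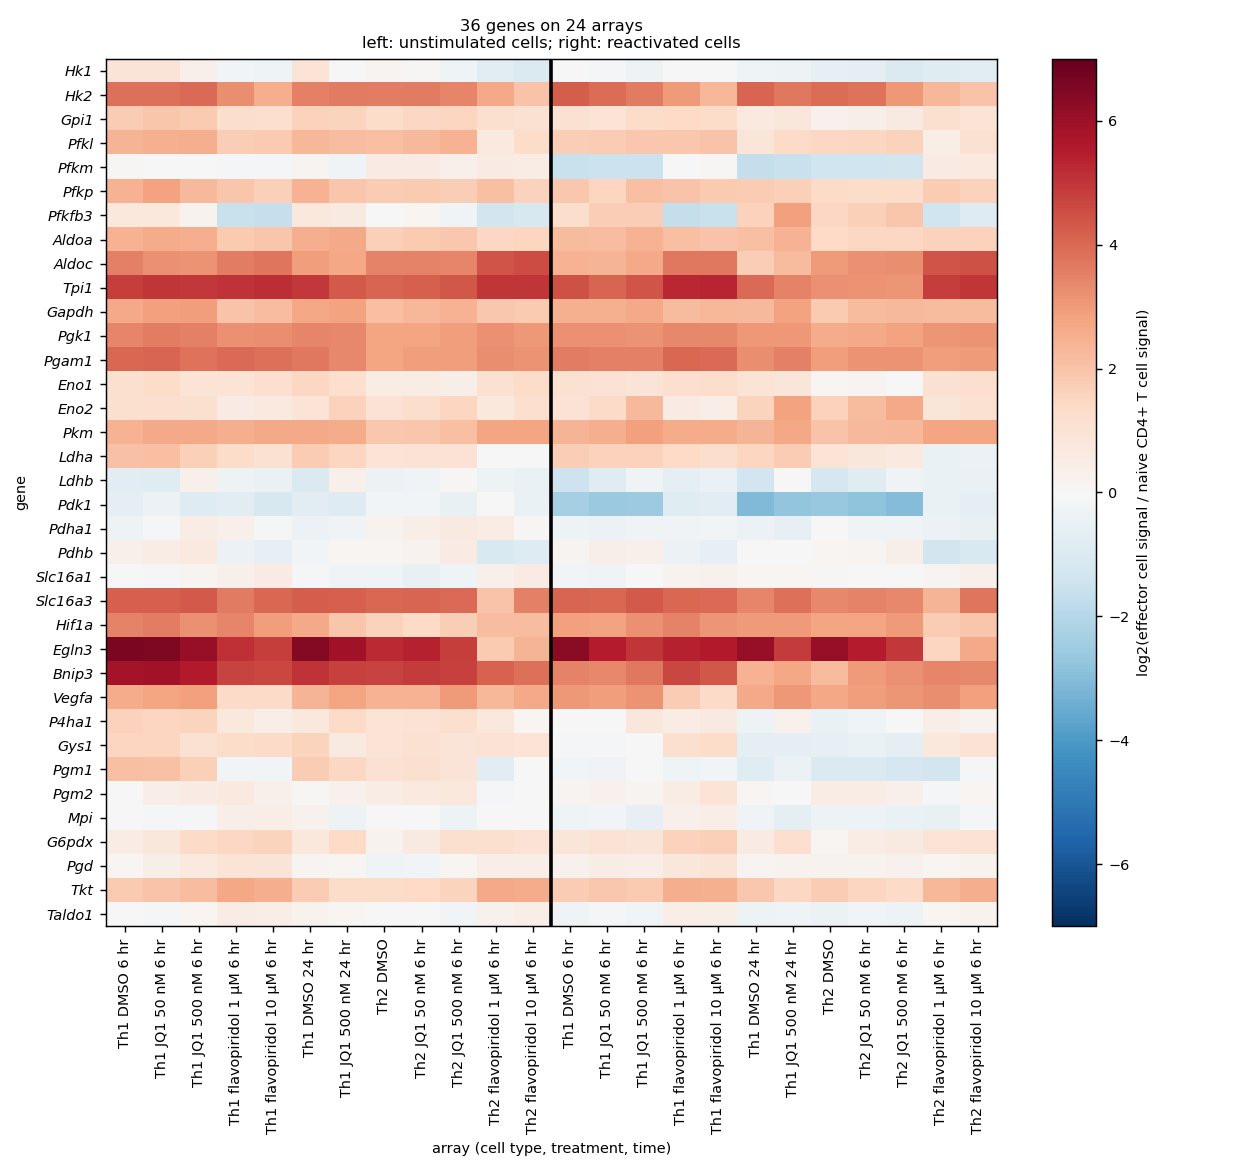
Log2 ratio of effector over naive signal for each of the 36 genes (vertical) on each of the 24 arrays (horizontal), with unstimulated cells to the left of the black line and reactivated cells to the right. Tpi1 was at 3.08 or more on all 24 arrays, Egln3 was lowest in Th2 cells with flavopiridol, and Pdk1 and Pfkm were lowest in reactivated cells that had not received flavopiridol.

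Effector cells without drug were first compared with naive cells. Most glycolytic genes were higher in the effector cells, and Egln3, Bnip3, Tpi1 and the lactate exporter Slc16a3 rose the most. Of 36 genes, 26 were called higher, where 32.2% of 13036 genes were, and 2 were called lower, where 25.3% were. The median change was 1.58, against 0.05 over all genes. Dyes were not swapped, so a dye effect and a difference from naive cells cannot be told apart, and the spread of the naive cells themselves is not in the test. Markers of other cells differed from naive cells too, with Ms4a1 at 1.71, 1.43 and 4.03 and Cd8a, a CD8 T cell marker, at 1.39, 1.87 and -0.02 on the unstimulated arrays of Th1 cells at 6 hr, Th1 cells at 24 hr and Th2 cells. The other CD8 marker, Cd8b1, was at -1.23, -0.82 and -1.26 on the same arrays, and the B cell marker Cd79a at 0.08, 0.03 and 0.79. The part of these markers' cells in the result was not tested.

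For glucose phosphorylation, Hk2, the inducible hexokinase, had values of 3.84, 3.52 and 3.58 in unstimulated Th1 cells at 6 hr, Th1 cells at 24 hr and Th2 cells. The 3 values were close together, and the change was 3.64 ± 0.10 (SE; adjusted p = 6.58e-07). Hk1, the constitutive hexokinase, was at 0.89, 0.97 and 0.17, and rose by 0.68 ± 0.18 (adjusted p = 0.0161). Further down the pathway, Tpi1, which interconverts the triose phosphates, was at 4.86, 4.96 and 4.10. Aldoc, an aldolase, was at 3.51, 2.95 and 3.49, Pgk1, which makes the first ATP of the pathway, at 3.44, 3.40 and 2.77, and Pgam1, phosphoglycerate mutase, at 4.01, 3.69 and 2.74. All of these were positive on each of the 3 arrays, with changes of 4.64 ± 0.26 for Tpi1, 3.32 ± 0.23 for Aldoc, 3.20 ± 0.17 for Pgk1 and 3.48 ± 0.24 for Pgam1. The phosphofructokinase subunits were unequal, with Pfkl called higher by 2.28 and Pfkm not called. Pfkp was called higher by 2.22 from its brightest probe, but its other probe gave 0.04, so its rise is uncertain. Gapdh, Aldoa, Pkm, Gpi1, Eno1 and Eno2 were called higher by 1.03 to 2.51, and Pfkfb3, which makes the activator of phosphofructokinase, by 0.51.

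Slc16a3, the lactate exporter MCT4, was at 4.20, 4.23 and 4.04 and rose by 4.16 ± 0.15 (adjusted p = 1.65e-06). Its other probe gave 4.66. The naive signal of Slc16a3 ranged over 3.06 (log2) between arrays, so its close ratios need not mean close effector signals. Between Th1 cells at 24 hr and Th2 cells its ratios differed by 0.19 and its Cy3 signals by 1.17. The part of the naive range in the rise was not tested. Ldha, the muscle-type lactate dehydrogenase subunit, rose by 1.59 ± 0.23, and Ldhb, the heart-type subunit, fell by 0.74 on the log2 scale, with values of -0.79, -1.01 and -0.43. The 2 subunits thus differed in sign on all 3 arrays. Pdk1, which inhibits pyruvate dehydrogenase, fell by 0.54, and the dehydrogenase subunits Pdha1 and Pdhb were not called. Neither was Slc16a1, the transporter MCT1.

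Egln3 was at 6.59, 6.41 and 5.20, and its rise of 6.07 ± 0.25 (67-fold; adjusted p = 3.58e-06) was the largest of the 36 by brightest probe. Its other probe gave 4.69. Bnip3, a mitophagy receptor, was at 5.81, 5.05 and 4.74 and rose by 5.20 ± 0.28, while its 2 other probes gave rises of 2.39 and 3.98. Hif1a rose by 2.57 ± 0.30, with 1.60 in Th2 cells below 3.46 and 2.64 in Th1 cells. Vegfa, the angiogenic growth factor, rose by 2.47, and P4ha1, a collagen prolyl hydroxylase, was 2.15-fold higher. Of the genes for glycogen and sugar phosphates, Gys1 (glycogen synthase) rose by 1.33 and Pgm1 (phosphoglucomutase) by 1.63, while Pgm2 and Mpi, mannose phosphate isomerase, were not called. In the pentose phosphate pathway, Tkt, transketolase, rose by 1.63 and G6pdx, which opens the pathway, by 0.51. Pgd and Taldo1 of the same pathway were not called.

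Of a wider list of 65 genes of the same pathways, 57 were measured well enough to test, and 27 were called higher and 10 lower, against 32.2% and 25.3% of all genes. Pygl, liver glycogen phosphorylase (4.60), and Bhlhe40, a hypoxia-responsive repressor (4.29), rose the most, and Eno3 (-1.87) and Ldhd (-1.83) fell the most. The zero of this comparison depended on the scaling. Centring each array on its median moved the median of all genes to -0.32 and the split of the 36 genes to 22 higher and 8 lower. Centring on the spike-in probes moved it to 0.66, with 33 higher. The spike-in mixes differed between the channels, so their zero is not that of equal RNA.

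Reactivated cells were then compared with unstimulated cells in the 3 pairs without drug, each pair on 1 slide. Of 36 genes, 2 were called higher, where 21.9% of 12530 genes were, and 15 lower, where 29.1% were. The median change was -0.31, against -0.05 over all genes. Bnip3, Pgm1, Pdk1, Pfkm, Gys1 and P4ha1 fell the most, in that order. Hk2 and Pfkfb3, which act on the first steps of glycolysis, rose.

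Bnip3 was at 5.81, 5.05 and 4.74 in unstimulated Th1 cells at 6 hr, Th1 cells at 24 hr and Th2 cells, and at 3.48, 2.46 and 2.22 in the reactivated cells of the same pairs. The groups did not overlap, and the change was -2.48 ± 0.13 (adjusted p = 0.000157). Pgm1 went from 2.08, 1.76 and 1.04 to -0.19, -0.83 and -1.02, a change of -2.30 ± 0.15 (adjusted p = 0.000226). Pdk1 went from -0.62, -0.81 and -0.21 to -2.30, -3.11 and -2.65, a change of -2.14 ± 0.18 (adjusted p = 0.000358). All reactivated values of both genes lay under all unstimulated ones. Pfkm, the muscle-type phosphofructokinase, went from 0.09, 0.17 and 0.58 to -1.58, -1.68 and -1.40 (-1.83 ± 0.13). Gys1 went from 1.48, 1.55 and 0.97 to -0.13, -0.66 and -0.58 (-1.78 ± 0.17), and P4ha1 from 1.63, 0.74 and 0.94 to -0.02, -0.37 and -0.46 (-1.38 ± 0.15). Where these genes had other probes the falls there were smaller, with -1.74 and -1.64 for Bnip3, -1.26 for Gys1 and -0.84 for P4ha1. From the brightest probes these 6 genes were at least 2-fold lower in all 3 pairs, as were 6.44% of 12284 genes, and none of the 36 was 2-fold higher in all 3, as were 6.2%.

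The other called falls were smaller. Hk1 (-0.96), Pfkl (-0.93), Aldoc (-0.93), Gpi1 (-0.89), Tpi1 (-0.77), Ldhb (-0.57), Slc16a3 (-0.52) and Taldo1 (-0.43) fell. Pfkp fell by 0.53 with its brightest probe, but its other probe gave a rise of 0.59, so its direction is uncertain. Pfkfb3 rose from 0.76, 0.75 and 0.04 to 1.21, 1.59 and 1.47 (0.91 ± 0.20; adjusted p = 0.00993), with 0.47 at its other probe. Hk2 rose from 3.84, 3.52 and 3.58 to 4.25, 4.06 and 3.92 (0.43 ± 0.12; adjusted p = 0.0269). In both genes each pair rose. The central enzymes Aldoa, Gapdh, Pgk1, Pgam1, Eno1 and Pkm were not called, nor were Ldha, Hif1a, Egln3 and Vegfa.

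In the wider list, 10 of 57 genes were called higher and 24 lower, against 21.9% and 29.1% of all genes. Ddit4, a stress-induced inhibitor of mTORC1 (-3.57), and Pygl (-2.42) fell the most, and Car12, a carbonic anhydrase (2.85), and Pdp1, the phosphatase that switches pyruvate dehydrogenase on (2.78), rose the most. Under spike-in centring, which moved the median of all genes to 0.20, the split of the 36 genes was 5 higher and 10 lower, and Bnip3, Pgm1, Pdk1, Pfkm, Gys1 and P4ha1 stayed called lower. The mean of the activation markers Il2, Nr4a1, Egr2 and Tnf was between -0.55 and 0.88 on unstimulated Th1 arrays with DMSO or JQ1. It was between -1.08 and -0.87 on such Th2 arrays, and between 4.28 and 5.26 on reactivated arrays of both cell types.

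**Figure D2:**
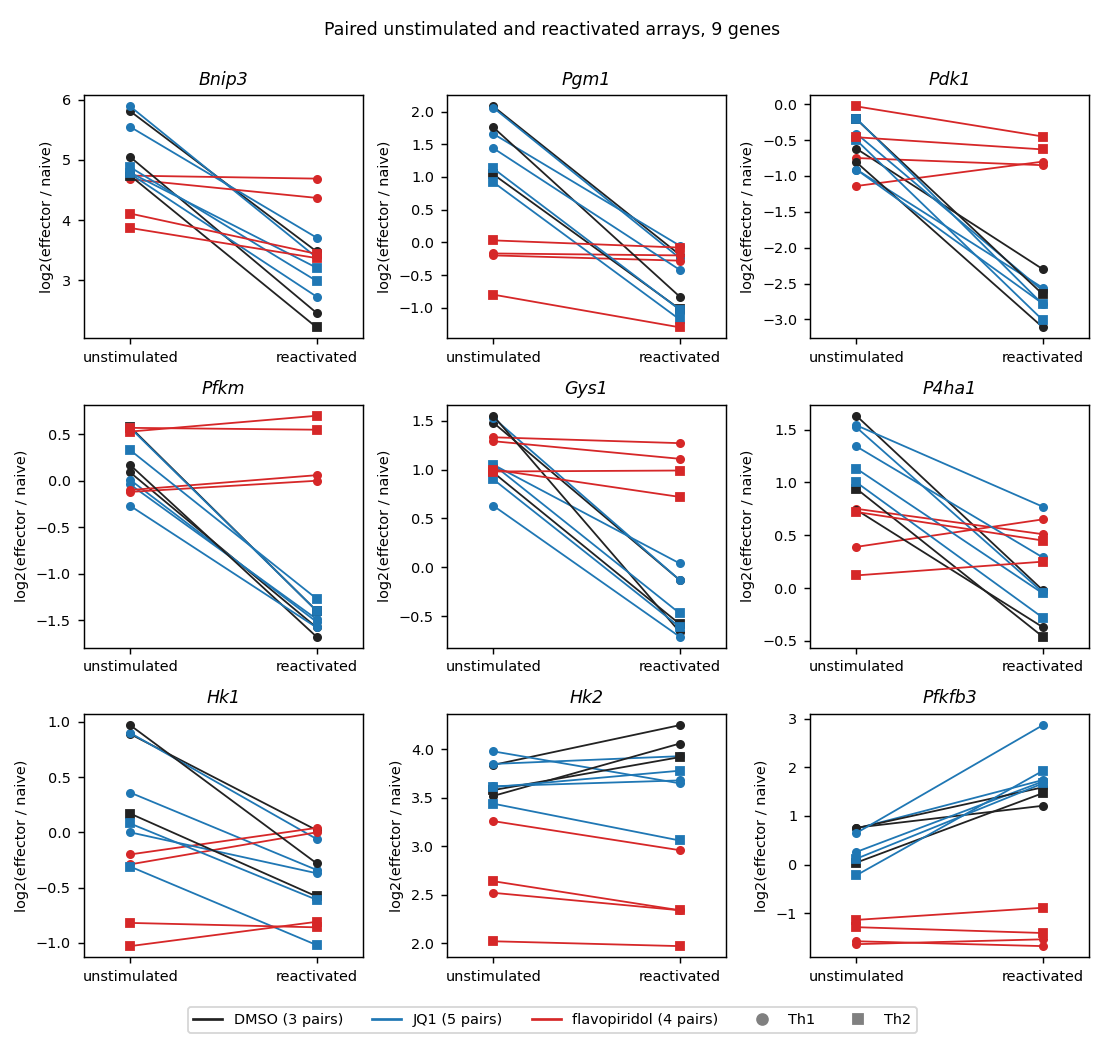
Log2 ratio of effector over naive signal in unstimulated and reactivated cells for 9 genes, each line joining the 2 arrays of 1 treatment, cell type and time (black DMSO, blue JQ1, red flavopiridol; circles Th1, squares Th2). Bnip3, Pgm1, Pdk1, Pfkm and Gys1 were at least 2-fold lower after reactivation in all DMSO and JQ1 pairs, and no flavopiridol pair of any of the 9 genes differed 2-fold.

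With flavopiridol, the same step changed little. Over the 4 flavopiridol pairs, no gene of the 36 was 2-fold lower or higher in any pair, and the differences ran from -0.94 for Pdha1 to 0.96 for Vegfa. In single pairs, 0.634% to 4.62% of all genes were 2-fold higher and 0.0914% to 0.379% 2-fold lower, and over the 9732 genes measured in all 4 pairs, 0.164% were higher and 0% lower in every pair. In the 5 JQ1 pairs, 5 of the 36 were 2-fold lower in every pair, against 3.5% of 11712 genes, and Pfkfb3 was 2-fold higher in every pair, against 3.7%. The mean of the 4 activation markers was between -2.10 and -1.67 on unstimulated and between -1.30 and 2.25 on reactivated flavopiridol arrays. Single markers differed: with 1 µM, Tnf went from -1.31 to 2.79 in Th1 and from -1.19 to 3.99 in Th2 cells, against 0.65 to 4.11 and -1.26 to 3.50 with DMSO, while Il2 went from 0.09 to 0.97 and from 0.35 to 2.22, against 0.31 to 7.49 and 1.36 to 7.36. With 10 µM, Tnf went from -1.21 to 0.66 in Th1 and from -1.40 to 1.11 in Th2 cells, and Il2 from 0.22 to 0.17 and from 0.30 to 0.33. The part of activation in these values was not tested.

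The interaction of 10 µM flavopiridol with reactivation was called for 7 genes, all in the positive direction, where 8.94% of 12432 genes were called in that direction and 6.91% in the other. They were Pdk1 (2.14 ± 0.29; adjusted p = 0.00585), Pgm1 (2.09 ± 0.50; adjusted p = 0.0317), Bnip3 (2.02 ± 0.24; adjusted p = 0.00415), Pfkm (1.99 ± 0.24; adjusted p = 0.00435), P4ha1 (1.72 ± 0.28; adjusted p = 0.0102), Gys1 (1.55 ± 0.21; adjusted p = 0.00542) and Hk1 (1.06 ± 0.21; adjusted p = 0.0189). Their values on the drug differed in pattern. Pdk1, Pfkm and Gys1 were near the unstimulated DMSO level in both states. In Th1 and Th2 cells with 10 µM flavopiridol, Pdk1 was at -1.14 and -0.46 unstimulated and at -0.80 and -0.63 reactivated, Pfkm at -0.10 and 0.53 and at 0.06 and 0.70, and Gys1 at 1.33 and 0.98 and at 1.27 and 0.99. Pgm1 was instead low in both states, at -0.17 and 0.03 unstimulated and at -0.20 and -0.08 reactivated, against 2.08 and 1.04 in the unstimulated cells with DMSO. Bnip3 was at 4.68 and 3.87 unstimulated and at 4.37 and 3.37 reactivated, P4ha1 at 0.39 and 0.12 and at 0.65 and 0.25, and Hk1 at -0.29 and -1.03 and at 0.00 and -0.81. The count was 4 in place of 7 without the Th1 unstimulated, the Th2 unstimulated or the Th2 reactivated array at 10 µM, and 11 with slide as a random block. Under the spike-in shift described with the next comparison it was 0 (limma; 6 at unadjusted p below 0.05). In the wider list 4 of 58 genes were called positive, with Pygl (2.80) and Bnip3l (1.84) first, and 3 negative, with Car12 (-3.10) and Pdp1 (-2.89) first.

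Flavopiridol was compared with DMSO over the 4 contexts of cell type and state. Against the other genes on the array, the pentose phosphate enzymes and Aldoc, Tpi1 and Pkm of glycolysis rose, while Egln3, Pfkfb3, Hk2 and Pdhb fell. At 10 µM, 9 of 36 genes were called higher, where 15.4% of 12432 genes were, and 6 lower, where 33.4% were. At 1 µM, 9 were called higher, where 16.3% were, and 8 lower, where 35.4% were. The median of the 36 genes at 10 µM was 0.01, against -0.22 over all genes.

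These rises held relative to the rest of the array only. Cy3 signal was above background for 35.5% to 41.5% of probes with flavopiridol and for 48.8% to 52.0% with DMSO. Shifting each array by its spike-in probes put the median of all genes at -1.35 for 10 µM, with 0 of the 36 genes called higher by limma (0 at unadjusted p below 0.05) and 24 lower. At 1 µM the same shift put it at -1.15, with 0 higher (0 unadjusted) and 18 lower. Centring on the spike-in probes gave 0 higher (0 unadjusted) and 28 lower at 10 µM and 0 higher (0 unadjusted) and 22 lower at 1 µM. Median centring put all genes at -1.05 and gave 2 higher and 18 lower at 10 µM and 3 higher and 16 lower at 1 µM, while the scanner's ratio gave 12 higher and 3 lower at 10 µM and 13 higher and 4 lower at 1 µM. Spikes were mixed into fixed amounts of RNA, so none of these scales is per cell. No flavopiridol array shared a slide with its DMSO control, and in Th1 cells alone, which leaves out the Th2 DMSO arrays of unknown time, 9 of 36 genes were called at each dose.

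Egln3 was at 6.59 and 6.32 in unstimulated and reactivated Th1 cells with DMSO and at 4.84 and 5.53 with 10 µM flavopiridol. In Th2 cells it went from 5.20 and 6.11 to 2.40 and 2.66. Every drug value lay under its control, and the change was -2.20 ± 0.52 (adjusted p = 0.0082), with -1.74 and -0.79 in Th1 and -2.81 and -3.45 in Th2 cells. Pfkfb3 went from 0.76 and 1.21 to -1.64 and -1.54 in Th1 cells and from 0.04 and 1.47 to -1.14 and -0.89 in Th2 cells, a change of -2.17 ± 0.27 (adjusted p = 0.000277). Its drug and control values did not overlap, and its other probe gave a smaller change of -0.79. Hk2 went from 3.84 and 4.25 to 2.52 and 2.34 in Th1 cells and from 3.58 and 3.92 to 2.02 and 1.97 in Th2 cells (-1.68 ± 0.16; adjusted p = 9.32e-05). From the Cy3 signal alone the change of Hk2 was -2.64, but the scanner software's own ratio, which subtracts background from the dim naive signal, gave 1.16.

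Pdhb, the beta subunit of pyruvate dehydrogenase, fell by 0.98 ± 0.15 (adjusted p = 0.000778), from between 0.12 and 0.33 with DMSO to between -1.05 and -0.56 at 10 µM. Its other subunit Pdha1 was not called. Ldha fell by 0.92 ± 0.17 (adjusted p = 0.00227) from its brightest probe, and in Th2 cells it went from 0.95 and 0.93 to 0.03 and -0.41. The change of Ldha at its 2 other probes lay between -0.21 and 0.43, so its direction is uncertain. Hk1 fell by 0.66 ± 0.22 (adjusted p = 0.0368) from its brightest probe, while its other probe gave -0.04.

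Of the pentose phosphate genes, G6pdx rose from 0.54 and 0.86 to 1.54 and 1.68 in Th1 cells and from 0.24 and 0.15 to 0.99 and 1.00 in Th2 cells. Its drug values all lay above its DMSO values (0.85 ± 0.10; adjusted p = 0.000279). Tkt rose by 0.89 ± 0.15 (adjusted p = 0.00148), from between 1.27 and 1.83 to between 2.50 and 2.61, again without overlap. Taldo1, transaldolase, rose by 0.54 and Pgd, which makes the second NADPH, by 0.53, so that 4 of the 4 listed enzymes of this pathway were called higher at both doses. In glycolysis, Aldoc rose by 1.00 ± 0.21, Tpi1 by 0.98 ± 0.23 and Pkm, pyruvate kinase, by 0.52 ± 0.16. Ldhb rose by 0.50 ± 0.16 and Slc16a1 by 0.55 ± 0.13.

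**Figure D3:**
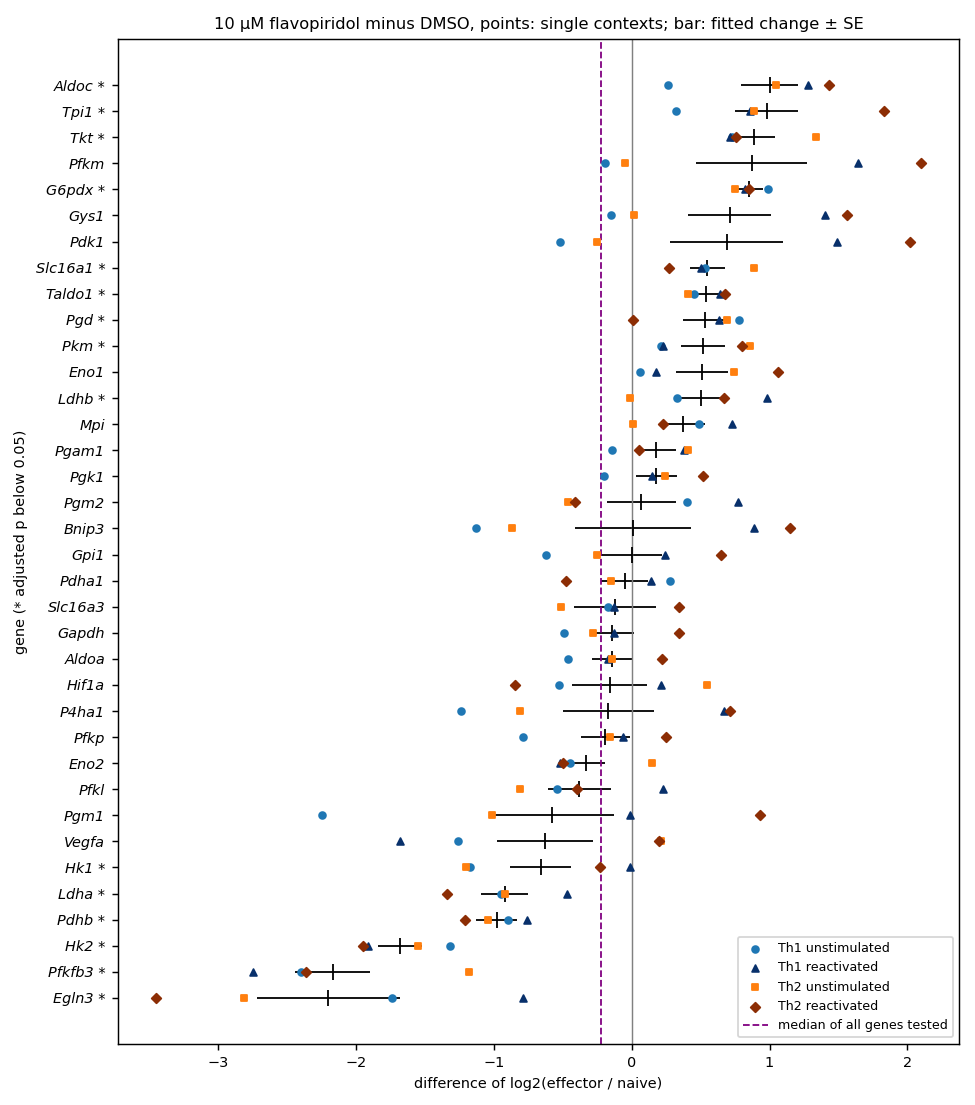
Difference between 10 µM flavopiridol and DMSO for each of the 36 genes in each of 4 contexts (points) with the fitted change ± SE (black), on the log2 scale relative to the other genes. Egln3, Pfkfb3 and Hk2 lay below 0 in all 4 contexts, G6pdx, Tkt and Taldo1 above 0 in all 4, and the dashed line marks the median of all genes at -0.22.

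The doses of flavopiridol gave close values. Between 10 and 1 µM, arrays of the same slide, none of the 36 genes differed 2-fold in Th1 cells, while in Th2 cells Slc16a3 was 2-fold higher at 10 µM in both states and Egln3 and Pgm1 were in reactivated cells. Over all genes, 1.45% were 2-fold higher at 10 µM in unstimulated and 1.53% in reactivated Th1 cells, and 3.26% and 3.43% in Th2 cells. At 1 µM, Pfkl (-0.72), Eno2 (-0.50) and Slc16a3 (-0.92) were called lower in addition, and Hk1 was not called. Slc16a3 was uneven, at 2.01 and 2.39 in Th2 cells with 1 µM against 3.53 and 3.72 with 10 µM. Its signal also varied in the naive channel, over 3.06 (log2) between arrays. The count at 1 µM was 10 in place of 17 without the Th2 unstimulated 1 µM array, 11 without the Th2 reactivated 1 µM array and 10 with slide as a random block.

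The response of Th1 and Th2 cells to 10 µM flavopiridol was compared by an interaction. None of the 36 genes was called by limma (5 at unadjusted p below 0.05), and 0.0161% of 12432 genes were. Spike-in centring moved the median of all genes to 0.61 and gave 7 calls, all higher. The differences of Egln3 and Vegfa were wide. That of Egln3 was 1.86 ± 0.48 (adjusted p = 0.231). Vegfa went from 2.60 and 3.03 to 1.33 and 1.35 in Th1 cells, and from 2.42 and 2.69 to 2.63 and 2.89 in Th2 cells, a difference of -1.68 ± 0.32 (adjusted p = 0.185). Its naive signal also ranged over 2.36 (log2) between the 24 arrays, and the part of that range in the difference was not tested. The B cell markers Cd79a and Ms4a1 moved in the same arrays: their mean ratio was -0.05 to 0.22 on Th1 flavopiridol arrays, with Ms4a1 never above background, 0.10 to 0.91 on other Th1 arrays, 0.94 to 1.43 on Th2 flavopiridol arrays and 1.41 to 2.41 on other Th2 arrays. The mean of the CD8 markers Cd8a and Cd8b1 was 0.98 to 1.22 on Th1 flavopiridol arrays, -0.92 to 0.52 on other Th1 arrays and -1.07 to -0.27 on Th2 arrays. Of the myeloid genes, Itgam was at -3.51 to -1.47 on flavopiridol arrays and at -1.15 to -0.55 on the others, and Csf1r at 1.09 to 2.06 and at -0.48 to 0.22. The erythroid gene Hba-a1 was at -0.24 to 0.54 with flavopiridol and at -1.11 to -0.11 without. The NK gene Klra8 was at 0.91 to 1.63 on Th1 flavopiridol arrays and at -0.11 to 1.12 on other Th1 arrays. The part of these markers' cells in the flavopiridol values was not tested. In the wider list 12 of 58 genes were called higher at 10 µM, with Car12 (1.90) and Prps2, which makes phosphoribosyl pyrophosphate (1.83), first, and 19 lower, with Ddit4 (-4.11) and Bhlhe40 (-3.67) first, against 15.4% and 33.4% of all genes. At 1 µM 13 were called higher, with Car12 (1.84) and Prps2 (1.80) first, and 20 lower, with Slc2a1 (-4.20) and Bhlhe40 (-3.39) first, against 16.3% and 35.4% of all genes. Slc2a1, the glucose transporter GLUT1, fell by 3.52 at 10 µM.

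JQ1 was compared with DMSO in the same 4 contexts. Fitted over the contexts, changes at 500 nM were smaller than 2-fold for each of the 36 genes, although differences in single contexts reached 2-fold, and 9 genes were called higher, where 17.7% of 12911 genes were, and 4 lower, where 29.8% were. The median was 0.07, against -0.07 over all genes. Ldhb, Eno2 and G6pdx rose the most, and Egln3 and Hk1 fell the most. These directions too are relative. Shifted by the spike-in probes, all genes had a median of -0.64, and of the 36 genes 0 were called higher by limma (0 at unadjusted p below 0.05) and 5 lower. Spike-in centring gave -0.54, with 0 higher (0 unadjusted) and 7 lower, and median centring gave -0.28, with 2 higher and 12 lower.

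Ldhb was at -0.79 and -1.43 in unstimulated and reactivated Th1 cells with DMSO and at 0.34 and -0.30 with 500 nM JQ1, and in Th2 cells it went from -0.43 and -1.15 to 0.10 and -0.25. It rose in all 4 contexts (0.93 ± 0.13; adjusted p = 0.000287), and at 24 hr in Th1 cells the difference was 1.37 unstimulated and 1.34 reactivated. G6pdx rose by 0.55 ± 0.13 (adjusted p = 0.00433), with 0.80 and 0.05 in Th1 cells and 0.86 and 0.50 in Th2 cells. Pgd, its neighbour in the pathway, rose by 0.29. Vegfa (0.34), Pdhb (0.31), Pkm (0.30), Gapdh (0.29) and Pfkl (0.20) were called higher as well.

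Egln3 went from 6.59 and 6.32 to 6.12 and 5.0 in Th1 cells and from 5.20 and 6.11 to 4.82 and 4.96 in Th2 cells (-0.83 ± 0.16; adjusted p = 0.00183). At 24 hr in Th1 cells it was at 5.90 against 6.41 unstimulated and at 4.88 against 6.08 reactivated. Hk1 fell by 0.45 ± 0.07 (adjusted p = 0.000442), Pdk1 by 0.31 and Mpi by 0.20. The B cell marker Ms4a1 was at 0.27 and 0.15 with 500 nM JQ1 and at 1.71 and 1.60 with DMSO in Th1 cells, and at 2.47 and 3.14 against 4.03 and 3.84 in Th2 cells. The B cell marker Cd79a was at -0.07 and 0.23 against 0.08 and 0.18 in Th1 cells. In Th2 cells Cd79a was at 0.35 and 0.41 against 0.79 and 0.71. Cd8a was at 0.45 and -0.05 against 1.39 and 0.86 in Th1 cells, and Klra8 at -0.09 and 0.24 against 0.79 and 1.12. The part of these markers' cells in the JQ1 values was not tested. In Th1 cells alone, where all arrays shared 1 slide and no array of unknown time entered, 2 of the 36 genes were called in place of 13.

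The interaction of 500 nM JQ1 with reactivation was called higher for 2 genes, where 4.52% of all genes were, and lower for 2, where 5.61% were. Eno2, the neuron-type enolase, differed by 0.03 and 0.48 in unstimulated Th1 and Th2 cells and by 1.28 and 1.03 in reactivated ones, an interaction of 0.90 ± 0.20 (adjusted p = 0.0238). Pfkfb3 differed by -0.50 and -0.26 unstimulated and by 0.50 and 0.46 reactivated (0.86 ± 0.16; adjusted p = 0.0126). Its sign turned with the state in both cell types. Egln3 (-0.81 ± 0.15; adjusted p = 0.0118) and Hk2 (-0.73 ± 0.18; adjusted p = 0.0344) had negative interactions. Hk2 differed by 0.14 and -0.14 in unstimulated Th1 and Th2 cells and by -0.59 and -0.86 in reactivated ones. The spike-in shift put the median of all genes at -1.21 for this interaction, and 29 of the 36 genes were then called lower, Eno2 and Pfkfb3 being negative as well (-0.30 and -0.33). Median centring gave 0 higher (2 unadjusted) and 5 lower, and the scanner's ratio 1 higher. The spike-in value of the Th1 reactivated 500 nM array was 0.91, against -0.54 with DMSO. Leaving out the unstimulated DMSO array of Th1 or of Th2 cells left 1 call in place of 4, and leaving out the reactivated DMSO array of Th1 or of Th2 cells or the Th1 unstimulated 500 nM array left 2.

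**Figure D4:**
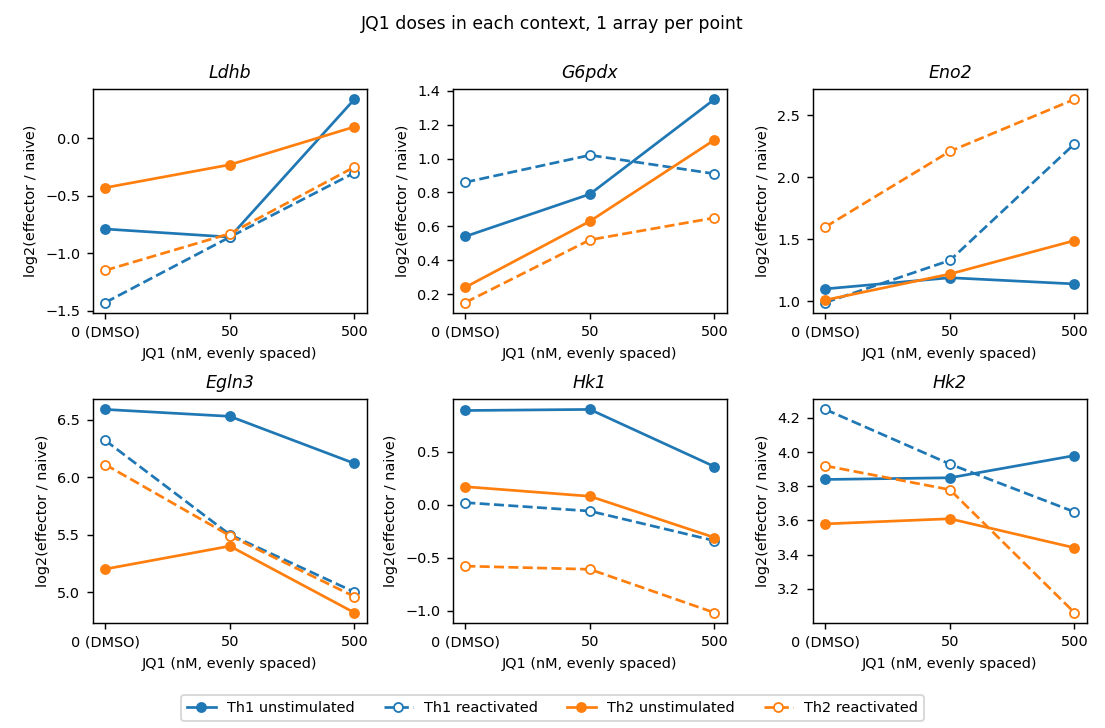
Log2 ratio of effector over naive signal for 6 genes with DMSO, 50 nM and 500 nM JQ1, evenly spaced, in Th1 (blue) and Th2 (orange) cells, unstimulated (solid lines, filled points) and reactivated (dashed lines, open points), with 1 array per point and a Th2 DMSO time that is unknown. Ldhb rose and Egln3 fell from DMSO to 500 nM in all 4 contexts, and Eno2 rose most in reactivated cells.

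At 50 nM, none of the 36 genes was called by limma (2 at unadjusted p below 0.05), where 0.248% of all genes were called higher and 0.0852% lower. In the wider list none of 59 genes was called at 50 nM either (3 unadjusted). At 500 nM, 10 were called higher, with Pmm1 (0.83) and Pgm3 (0.82), enzymes of mannose and glucosamine phosphates, first, and 9 lower, with Ugp2, which makes UDP-glucose (-0.94), and Dlat, the core of pyruvate dehydrogenase (-0.63), first, against 17.7% and 29.8% of all genes. The response to 500 nM JQ1 was not called as different between Th1 and Th2 cells for any of the 36 genes by limma (0 at unadjusted p below 0.05), nor for any other gene (0%, with 905 genes unadjusted). Interactions of JQ1 with reactivation in the wider list were called higher for 5 of 59 genes, with Pfkfb4 (1.74) and Ddit4 (1.64) first, and lower for 6, with Car12 (-2.52) and Pgm3 (-1.18) first, against 4.52% and 5.61% of all genes.

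Th1 cells were compared with Th2 cells in 6 matched pairs with DMSO or JQ1. The Th1 markers were Tbx21, Ifng, Cxcr3, Il18r1 and Il12rb2 and the Th2 markers Gata3, Il4, Il5, Il13 and Il1rl1. With DMSO or JQ1, the Th1 markers had a mean of -1.12 to -0.49 on unstimulated and 0.19 to 2.20 on reactivated Th2 arrays. On Th1 arrays it was 2.54 to 4.25 and 2.97 to 4.34. The Th2 markers had a mean of -0.13 to 0.62 and 0.79 to 3.32 on Th1 arrays, and of 0.77 to 2.02 and 3.49 to 4.61 on Th2 arrays. The part of these shifts in the difference was not tested. Most glycolytic genes were higher in Th1 cells, by less than 2-fold in the fit over the pairs. Of 36 genes, 23 were called higher, where 14.5% of 12911 genes were, and 4 lower, where 14.1% were. The median was 0.43, against -0.01 over all genes. The spike-in shift moved the median of all genes to -0.13 and left 7 called higher and 0 lower (3 lower at unadjusted p below 0.05). The median of the 36 genes was 0.31 there, and no called gene changed sign. Spike-in centring gave 10 higher and 0 lower (5 lower unadjusted), median centring 14 higher and 5 lower, and the 4 JQ1 pairs alone, without the arrays of unknown time, gave 16 higher and 1 lower. In those 4 pairs the Th1 arrays lay on 1 slide and the Th2 arrays on another, so cell type and slide cannot be told apart there. Only the DMSO pairs shared a slide.

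Aldoa, the main aldolase, was higher by 0.79 ± 0.06 (adjusted p = 0.000128), at 2.41, 2.62 and 2.55 in unstimulated Th1 cells with DMSO, 50 and 500 nM JQ1 and at 1.68, 1.82 and 1.89 in Th2 cells. In reactivated cells it was at 2.20, 2.17 and 2.42 in Th1 and at 1.38, 1.45 and 1.43 in Th2 cells. Its Th1 values all lay above its Th2 values. Ldha was higher by 0.89 ± 0.08 (adjusted p = 0.000177), at 1.59 to 2.09 in Th1 and at 0.66 to 1.01 in Th2 cells over the 6 pairs, again without overlap. Pgm1 was higher by 0.91 ± 0.07 (adjusted p = 0.000104) and Hk1 by 0.67 ± 0.06 (adjusted p = 0.000245), with 0.24 at the other probe of Hk1. Tpi1 (0.95), Pgam1 (0.78), Eno1 (0.74), Pgk1 (0.57), Gpi1 (0.54), Pkm (0.52), Gapdh (0.47), Hk2 (0.35) and Pfkl (0.23) were called higher too. Pfkp was called higher by 0.65 from its brightest probe and was lower by 0.13 from its other probe.

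Bnip3 was higher in Th1 cells by 0.83 ± 0.12 (adjusted p = 0.00181), P4ha1 by 0.52, Slc16a3 by 0.46 and Gys1 by 0.43. Other probes gave 0.49 and 0.51 for Bnip3, 0.35 for P4ha1, 0.59 for Slc16a3 and 0.23 for Gys1. The naive signal of Slc16a3 ranged over 3.06 (log2) between arrays. In unstimulated cells its Th1 minus Th2 difference with 50 nM JQ1 was 0.11 by ratio and 1.46 by Cy3 alone. With 500 nM JQ1 it was 0.33 and 1.22. The size of the Slc16a3 difference is thus uncertain. Hif1a was higher by 0.98 ± 0.31 (adjusted p = 0.045), and its values showed where. In unstimulated cells they were 3.46, 3.57 and 3.21 in Th1 against 1.60, 1.39 and 1.74 in Th2, without overlap. In reactivated cells they were 2.87, 2.81 and 3.21 against 2.78, 2.76 and 2.99, which overlapped. Egln3 was similar, at 6.59, 6.53 and 6.12 against 5.20, 5.40 and 4.82 unstimulated, and at 6.32, 5.50 and 5.0 against 6.11, 5.49 and 4.96 reactivated (0.68 ± 0.21; adjusted p = 0.043). Whether the difference between cell types depended on the state was not tested. The same unstimulated arrays differed in activation markers. Nr4a1 was at 2.26, 2.28 and 2.01 in Th1 against -1.97, -1.87 and -1.58 in Th2 cells. With DMSO, Egr2 was at 0.32 against -1.59 and Tnf at 0.65 against -1.26. Il2 went the other way, at 0.31 against 1.36. The part of activation in the Hif1a and Egln3 differences was not tested.

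In the pentose phosphate pathway Tkt (0.44), G6pdx (0.36) and Pgd (0.34) were higher in Th1 cells, and Taldo1 was not called. The 4 genes called lower were Aldoc (-0.41), Pfkm (-0.32), Pdha1 (-0.30) and Pgm2 (-0.29). Of 59 genes of the wider list, 18 were called higher, with Bhlhe40 (1.82) and Plod2, a collagen lysyl hydroxylase (1.45), first, and 12 lower, with Tktl1, a transketolase-like gene (-1.23), and Rpia, ribose phosphate isomerase (-0.56), first, against 14.5% and 14.1% of all genes. Marker genes of other cells differed in the same arrays. The mean ratio of the B cell markers was 0.10 to 0.91 in Th1 and 1.41 to 2.41 in Th2 cells with DMSO or JQ1. Cd8a, a CD8 T cell marker, was above background on no Th2 array and on 13 of 14 Th1 arrays, while the mean of Cd8a and Cd8b1 was -0.92 to 0.52 in Th1 and -1.07 to -0.64 in Th2 cells. The NK gene Klra8 was at -0.11 to 1.12 in Th1 cells and, on no array above background, at -0.20 to 0.01 in Th2 cells. The part of these markers' cells in the difference was not tested.

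**Figure D5:**
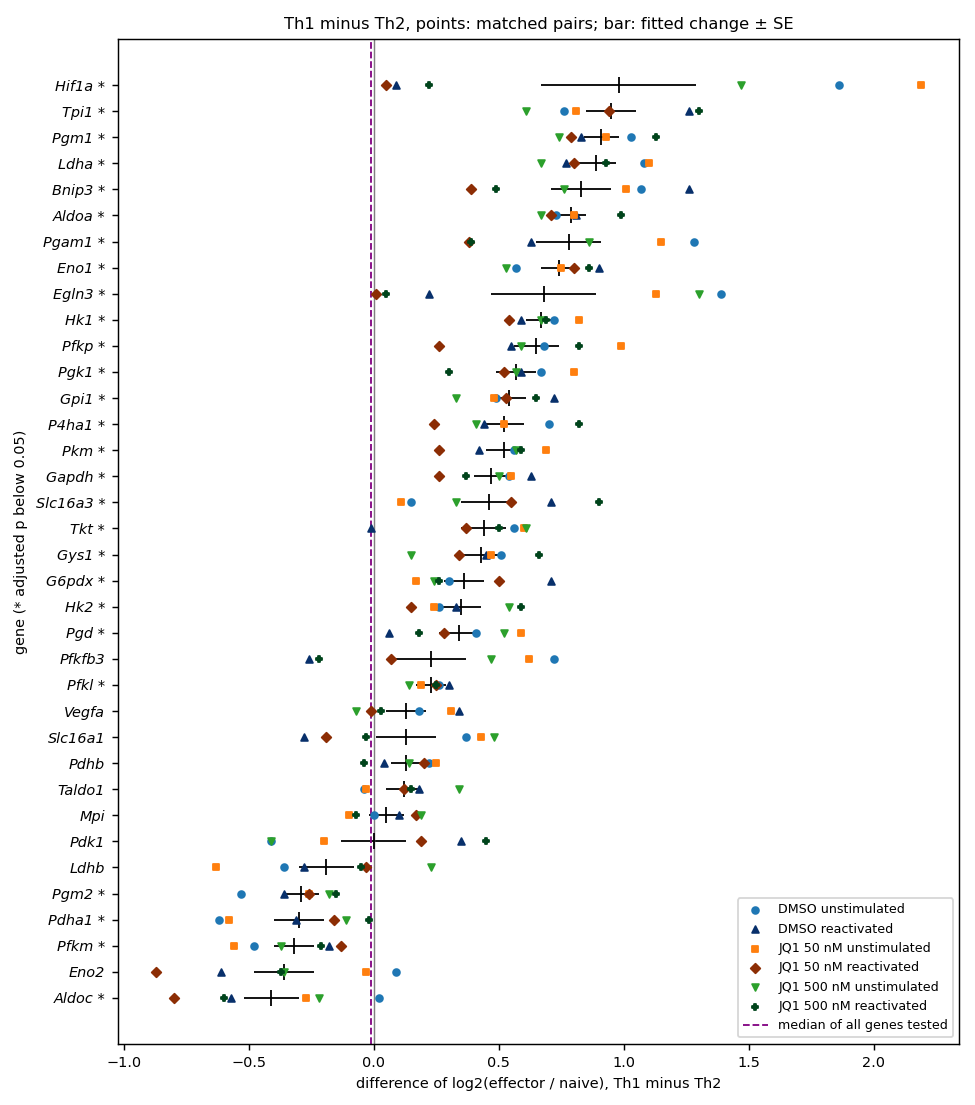
Difference between Th1 and Th2 cells for each of the 36 genes in each of 6 matched pairs (points) with the fitted change ± SE (black), on the log2 scale. Aldoa, Ldha, Hk1, Pgm1 and Tpi1 lay above 0 in all 6 pairs, and the dashed line marks the median of all genes at -0.01.

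Th1 arrays at 24 hr were set beside those at 6 hr, as values only, since the times lay on different slides. Without drug, Hif1a was at 2.64 against 3.46 in unstimulated cells and Bnip3 at 2.46 against 3.48 in reactivated cells, the only one of the 36 genes with a 2-fold difference in the pairs with DMSO. With 500 nM JQ1, Hif1a was at 1.92 against 3.21 unstimulated and Pfkfb3 at 2.87 against 1.71 reactivated. No other of the 36 genes differed 2-fold between the times. Over all genes, 0.639% were 2-fold higher and 0.936% lower at 24 hr in unstimulated and 0.447% and 0.604% in reactivated cells with DMSO, and 1.52% and 1.38%, and 1.98% and 1.69%, with 500 nM JQ1.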

How the data were processed

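RNA of 24 samples was hybridised on two-colour Agilent arrays with the naive reference in Cy5 on each. The deposited scanner files hold spot intensity values in both channels and a log10 ratio from Agilent Feature Extraction 10.7.1.1, and the authors also deposited a table of 34710 probes of processed log2 ratios (build mm9 per the submitters' processing notes), whose scale and centring were not stated. It correlated with the ratios made here at r = 0.981 to 0.996 (across probes, by array).

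Median spot intensities were corrected by normexp (offset 50) and normalized within arrays by loess in limma 3.58.1 (R 4.3.3), leaving out control spots. Repeated spots of a probe were averaged. Of 55681 probes, 26437 had a gene name, and each of the 20028 genes was read from its brightest probe. Genes not well above background in Cy3 on at least 3 arrays of a fit (either channel against naive cells) were left out. Linear models were fitted with limma, with the context or pair as a block, over all genes, and p-values were adjusted by Benjamini-Hochberg at 0.05. The fits were tested on simulated data. The arrays lay on 3 slides. Pairs of unstimulated and reactivated cells shared a slide, flavopiridol and Th2 JQ1 arrays did not share one with their DMSO arrays, and the times of Th1 cells lay on different slides. Th1 and Th2 arrays of the same drug and dose also lay on different slides.

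Precision was limited by the number of arrays. Over 276 pairs of arrays, the same naive RNA differed by an SD of 0.18 (median; 0.10 to 0.29), and repeated spots by 0.09 to 0.11. After loess the 10 spike-in probes stood between -0.84 and 0.99. They were used in 2 alternatives, centring unadjusted log ratios on them or shifting the loess values by them. Other alternatives were median centring, the scanner's ratio, the deposited table, the mean of all probes, no filter, Cy3 alone, slide as a random block, no block and each array left out.

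The named genes are the full list of 36, with values on each array for those the results turn on and fitted changes for other called genes, a narrower choice than the rule set, which asked for array values of every gene called or changed 2-fold. For the wider list they are the 2 largest called changes each way. The genes, lists and tests were chosen with earlier results of these data known. Probes of near-identical gene copies, such as pseudogenes of Gapdh, Eno1, Ldha, Pgk1 and Pgam1, were not told apart, since probe sequences were not used here. Gene names were assigned through the RefSeq transcript of each probe, or from a name in the array file where that was a gene symbol. They may thus differ from the names of the array's design. Pgm1 here is the gene on chromosome 4 and Pgm2 that on chromosome 5. One marker gene is not reported here and was left out of its list's mean.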

Additional observations from a re-analysis of the deposited data

Results flagged for a closer look

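Some effects differed between states by a test of the difference itself, the interaction term in limma. For 10 µM flavopiridol, the signed change in reactivated cells minus that in unstimulated cells was 2.14 (log2) for Pdk1, 2.09 for Pgm1, 2.02 for Bnip3, 1.99 for Pfkm, 1.72 for P4ha1, 1.55 for Gys1 and 1.06 for Hk1. A positive value need not mean a larger effect in reactivated cells. Hk1 differed from DMSO by -1.17 and -1.20 in unstimulated Th1 and Th2 cells. In reactivated ones Hk1 was at 0.00 and -0.81 with the drug, against 0.02 and -0.58. For 500 nM JQ1, the signed difference between states was 0.90 for Eno2, 0.86 for Pfkfb3, -0.81 for Egln3 and -0.73 for Hk2. Each rests on 2 cell types with 1 array per condition.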

How the results depend on the processing

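The changes above are relative to the other genes on an array, and counts of calls moved with the scaling, the block and the arrays used. Genes called under the spike-in centring and the spike-in shift numbered 28 and 24 for flavopiridol at 10 µM, 7 and 5 for JQ1 at 500 nM, 1 and 0 for flavopiridol by reactivation, 7 and 6 for flavopiridol by cell type, 29 and 29 for JQ1 by reactivation, and 10 and 7 between Th1 and Th2 cells. Slide as a random block gave 10 with 1 µM flavopiridol and 11 for flavopiridol by reactivation. Without the context or pair block there were 11 for flavopiridol at 1 µM, 1 for JQ1 at 500 nM and 7 between Th1 and Th2 cells, and the scanner's ratio gave 1 for JQ1 by reactivation. Restrictions to arrays of known time were chosen after seeing the data: Th1 arrays alone gave 9 at each flavopiridol dose and 2 for JQ1 at 500 nM, and the 4 JQ1 pairs alone gave 17 between Th1 and Th2 cells. The cause of these shifts was not tested. With each array left out in turn, the genes called ranged from 24 to 29 against naive cells, 12 to 16 on reactivation, 11 to 16 with 10 µM and 10 to 18 with 1 µM flavopiridol, 10 to 15 for JQ1 at 500 nM, 4 to 9 for flavopiridol by reactivation, 1 to 5 for JQ1 by reactivation and 23 to 26 between Th1 and Th2 cells.

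The values that follow are for genes called on the scale named or on the reported one, and genes called on neither are left out. Under median centring the changes with the opposite sign against naive cells were Pfkfb3 -0.01, Pdhb -0.54, Mpi -0.41, G6pdx -0.03, Pgd -0.52 and Taldo1 -0.62. With 10 µM flavopiridol the same scale gave Ldhb -0.80, Slc16a1 -0.16, Bnip3 -1.15, Pgm2 -0.64, Mpi -0.83, G6pdx -0.26 and Pgd -0.66. With 500 nM JQ1 the same scale gave Pfkl -0.14, Aldoc -0.32, Pdhb -0.00, Vegfa -0.01 and Pgd -0.06. Under spike-in centring the change with the opposite sign against naive cells was Slc16a1 0.57. With 10 µM flavopiridol the same scale gave Pfkm -1.08, Aldoc -0.48, Tpi1 -0.38, Pgk1 -0.61, Pgam1 -0.89, Pkm -0.22, Ldhb -1.39, Pdk1 -1.23, Slc16a1 -0.75, Bnip3 -1.74, Gys1 -1.21, Pgm2 -1.24, Mpi -1.42, G6pdx -0.85, Pgd -1.25, Tkt -0.12 and Taldo1 -0.36. With 500 nM JQ1 the same scale gave Pfkl -0.40, Gapdh -0.18, Pkm -0.22, Pdhb -0.27, Vegfa -0.27, G6pdx -0.06 and Pgd -0.33. For JQ1 by reactivation the same scale gave Pfkfb3 -0.28 and Eno2 -0.22. Under the spike-in shift the changes with the opposite sign with 10 µM flavopiridol were Gpi1 -1.12, Aldoc -0.12, Tpi1 -0.15, Pgk1 -0.95, Pgam1 -0.95, Eno1 -0.62, Pkm -0.60, Ldhb -0.63, Slc16a1 -0.58, Bnip3 -1.12, Pgm2 -1.05, G6pdx -0.27, Pgd -0.60, Tkt -0.24 and Taldo1 -0.58. With 500 nM JQ1 the same scale gave Pfkl -0.37, Gapdh -0.28, Pkm -0.27, Pdhb -0.26, Vegfa -0.23, G6pdx -0.02 and Pgd -0.28. For JQ1 by reactivation the same scale gave Pfkfb3 -0.33 and Eno2 -0.30. With the scanner's ratio the changes with the opposite sign with 10 µM flavopiridol were Hk2 1.16 and Vegfa 0.89. With 500 nM JQ1 the same scale gave Hk2 0.42. For JQ1 by reactivation the same scale gave Hk2 0.17. With the mean of all probes the change with the opposite sign on reactivation was Pfkp 0.03. Over 10 pairs, flavopiridol included, the change with the opposite sign between Th1 and Th2 cells was Pgm2 0.09. The cause was not tested. Counts with the deposited table, without the filter and with Cy3 alone stayed within 1.5 times.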
